A study of Mus musculus with 12 samples.

Results

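The genes described here are 10 components of Wnt signalling, measured in single nuclei of mouse cortex and chosen by symbol: the receptors Fzd3, Ror1 and Ror2, the coreceptors Lrp5 and Lrp6, the intracellular effector Ctnnb1, the transcription factors Tcf7l1, Tcf7l2 and Lef1, and the feedback gene Axin2. All 10 were found among the 55335 genes of the deposited matrices, and none was used to define a cell class. The libraries came from cortices of 12 mice at P21 (21 days of age), of which 6 were WT and 6 MYT1L Het, and each genotype was represented by 3 males and 3 females. MYT1L is a neuronal transcription factor, and the Het animals carry the S710fsX frameshift allele of Myt1l on a C57BL/6 background. Pups of both genotypes had been injected with AAV9 coding for a transposase and a transposon reporter soon after birth, so WT and Het share that treatment, and all animals were prepared on the same plates.

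Wnt ligands bind Frizzled receptors, of which Fzd3 is one, together with Lrp5 or Lrp6, which stops the destruction complex from degrading β-catenin, the product of Ctnnb1. β-catenin then joins the HMG-box factors Tcf7l1, Tcf7l2 and Lef1 on DNA, and Axin2, a scaffold of the destruction complex, is a widely used transcriptional target of this branch. Ror1 and Ror2 are receptor tyrosine kinases that bind Wnt5a and act mostly outside the β-catenin branch. In the oligodendrocyte lineage, Tcf7l2 is known for its expression in cells that have just begun to differentiate.

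After filtering, 33112 nuclei remained (1551 to 4413 per animal), 14343 from WT and 18769 from Het animals, with a median of 2973.5 to 3398 UMIs per nucleus by animal. No barcode was shared between libraries. Nuclei were placed in a class by the UMIs of its marker genes, and each class is called by that marker list. Excitatory neurons (16053 nuclei), inhibitory neurons (5711), oligodendrocytes (1365), oligodendrocyte precursors (425) and newly formed oligodendrocytes (412) had at least 10 nuclei in every animal. Astrocytes (187) reached this in 8 animals, fibroblast-like cells (180) in 8 and microglia (170) in 7, and all other animals were left out of these 3 classes. A further 7638 nuclei fell in no class and 945 in several. Of the marker genes, 10 of 10 were raised in astrocytes, 10 of 10 in oligodendrocytes, 7 of 7 in newly formed oligodendrocytes, 6 of 6 in oligodendrocyte precursors, 9 of 9 in microglia and 9 of 10 in fibroblast-like cells. Nuclei were placed by these same genes, so the counts follow from the rule and do not test the classes. In L4/5 IT and in dentate granule nuclei, 3 of 5 markers were raised. Only 2 of 4 markers were raised in the class called Cnr1/Cck, which is named for those genes. Among the 10 leading genes of L5 NP nuclei, only Tshz2 and Vwc2l were markers of that list, while Nxph1, Grik1 and Kcnip1 are genes also known from interneurons. Nuclei with markers of striatal projection neurons (542) and of dentate granule cells (233) were present although the labels give the region as cortex. Myt1l was not used to check the genotype labels. These counts do not separate transcripts of the frameshift allele, and its effect on transcript counts was not tested. In excitatory neurons Myt1l stood at 984.7 CPM ± 81.8 in WT and 1105.9 CPM ± 58.7 in Het (SD, n = 6 each). The log2 fold change was 0.16 there (unadjusted p = 0.00948, adjusted p = 0.378, edgeR). In all nuclei it was 0.14 (unadjusted p = 0.0135, adjusted p = 0.679), so Myt1l was not lower in Het. Genotypes are therefore as labelled.

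Levels are given as CPM, the UMIs of a gene relative to all UMIs of a class on the usual CPM scale, from sums per animal. The libraries were made from polyA RNA of nuclei, so reads from introns count, and a level is compared here only between classes or animals for the same gene. Classes were compared by the quasi-likelihood test of edgeR with the animal as a block, each class against the mean of the other broad classes. A call required an adjusted p under 0.05 and a log2 difference over 1. Of the members, 7 had enough counts for this test, and 31 of 56 contrasts were called, 16 higher and 15 lower. The filter on low counts asked for 7 samples past its limit, and Ctnnb1 met this only with its fibroblast-like samples (7 of 8) and Lrp5 only with those of microglia (5 of 7) and fibroblast-like cells (2 of 8). Such members had to differ between classes, so the counts are given as a description. Fibroblast-like cells were higher in 6 of 7 members and lower in 0, against 16.2% and 23.1% of all 4313 genes tested. Astrocytes were higher in 4 and lower in 0 (17.3% and 9% of all genes), and oligodendrocyte precursors were higher in 3 and lower in 0 (17.4% and 9.23%). Newly formed oligodendrocytes were higher in 2 members and lower in 1 (15.1% and 23.8% of all genes), and microglia were higher in 1 and lower in 3 (16.8% and 6.63%). Oligodendrocytes were higher in 0 and lower in 4 (18.1% and 27.3%). Excitatory neurons were higher in 0 and lower in 4 (23.4% and 12.6%), and inhibitory neurons higher in 0 and lower in 3 (20.7% and 10.4%). Scaling by plain totals in place of TMM factors moved the median of all genes in a broad class by between -0.38 and 0.37 on the log2 scale, and it reversed no called difference of a member. The calls of Tcf7l2 in oligodendrocyte precursors (0.90) and of Ror1 in microglia (-0.91, adjusted p = 0.157) did not pass with that scaling.

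**Figure D1:**
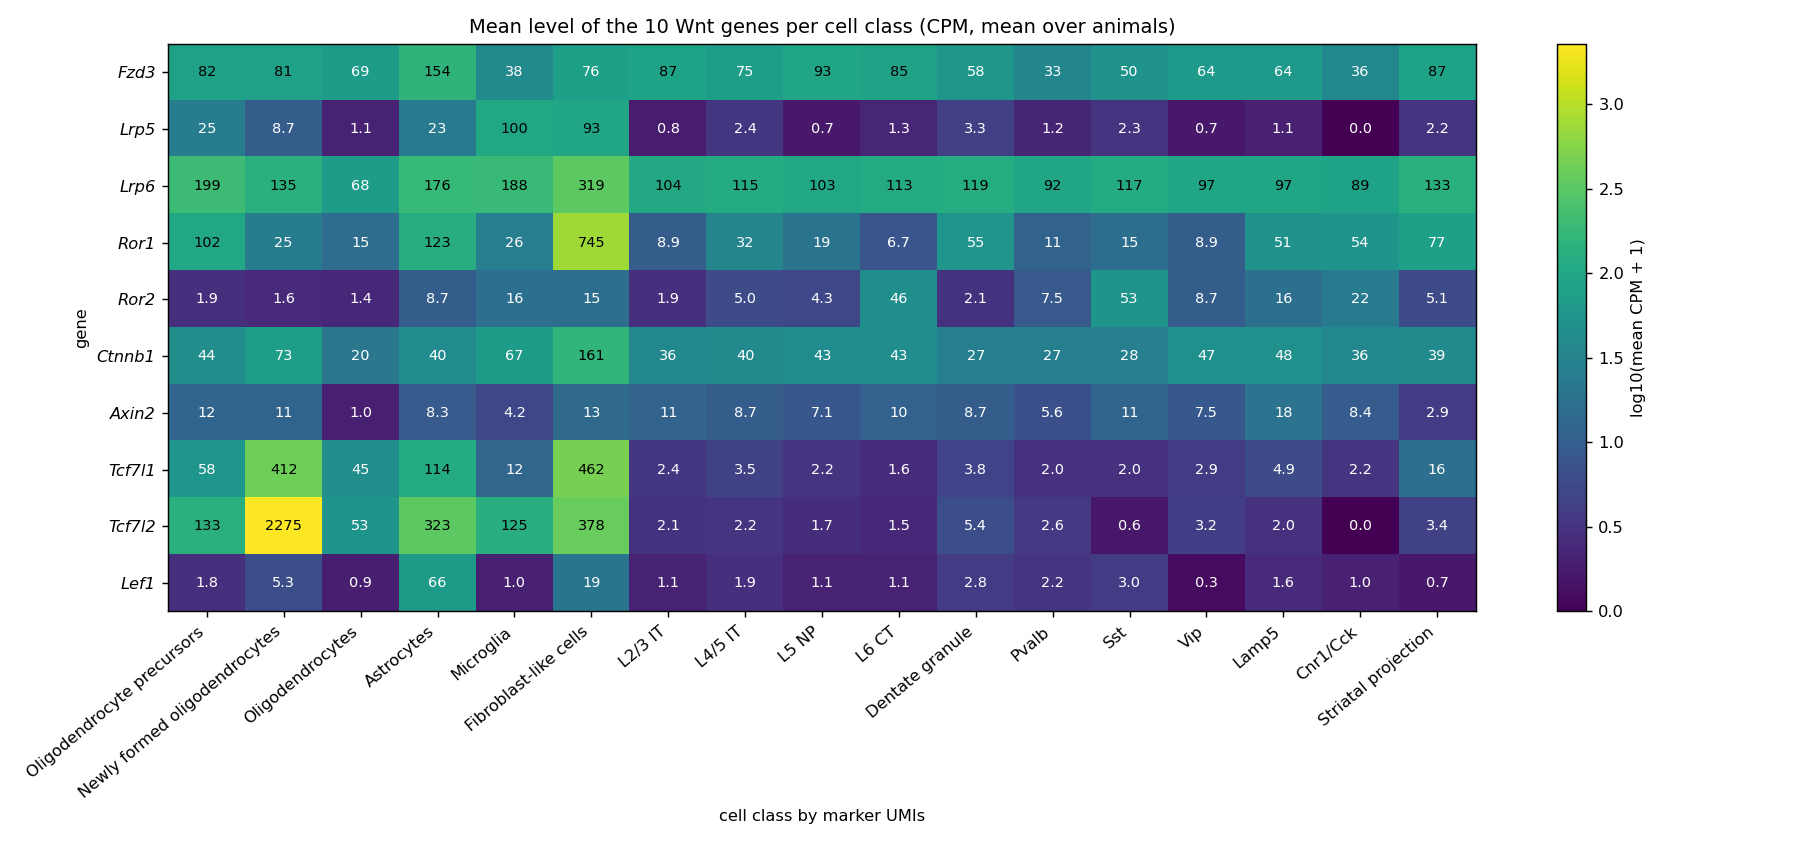
Level of the 10 genes (vertical axis) in 17 cell classes (horizontal axis); each cell of the grid is the mean CPM over the animals with at least 10 nuclei of the class, coloured on a log scale. Tcf7l2 is highest in newly formed oligodendrocytes (2275 CPM) and Ror1 in fibroblast-like cells (745 CPM), while Tcf7l1 is high in newly formed oligodendrocytes and fibroblast-like cells (412 and 462 CPM) and Lrp5 in microglia and fibroblast-like cells (99.7 and 93.4 CPM).

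Tcf7l2 (mm10 chr19:55741820-55933654, plus strand) had its highest level in newly formed oligodendrocytes, the stage marked by Enpp6, Gpr17 and Bmp4. Tcf7l1 (mm10 chr6:72626378-72789254, minus strand), which is best known as a repressor in the absence of β-catenin, was also high there. The promoters of both genes are shown because the pair moved together along the lineage. RefSeq (GRCm38.p6) gives a distal start of Tcf7l2 and another within the gene, and the 250 bases before each start are printed 5′ to 3′ on the strand of the gene. Capitals mark CTTTGA or CTTTGT, the core letters bound by TCF/LEF factors, and AAAGTT, the core of the MYT1 family, each searched on both strands.
Tcf7l2, distal start (chr19:55741560-55741809): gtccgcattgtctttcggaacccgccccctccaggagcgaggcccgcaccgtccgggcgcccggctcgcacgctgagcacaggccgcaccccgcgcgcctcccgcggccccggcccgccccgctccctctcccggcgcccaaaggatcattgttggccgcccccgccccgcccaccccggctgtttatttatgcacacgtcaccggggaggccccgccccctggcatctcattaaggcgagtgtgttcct
Tcf7l2, internal start (chr19:55895071-55895320): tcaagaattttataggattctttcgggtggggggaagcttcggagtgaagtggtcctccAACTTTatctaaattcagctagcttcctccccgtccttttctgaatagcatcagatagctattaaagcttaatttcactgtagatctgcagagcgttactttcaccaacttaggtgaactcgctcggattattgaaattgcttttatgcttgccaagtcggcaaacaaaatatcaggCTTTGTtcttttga
Tcf7l1 (chr6:72789046-72789295): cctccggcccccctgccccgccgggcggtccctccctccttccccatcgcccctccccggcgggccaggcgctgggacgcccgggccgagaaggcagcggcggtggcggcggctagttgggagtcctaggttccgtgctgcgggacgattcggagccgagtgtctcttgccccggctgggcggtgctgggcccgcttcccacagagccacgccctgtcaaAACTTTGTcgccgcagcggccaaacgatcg
The distal Tcf7l2 window held neither motif. The internal window held CTTTGT 14 bases before the start and AACTTT, the reverse complement of AAAGTT, 191 bases before it. In the Tcf7l1 window the motifs overlapped in AACTTTGT, with the TCF/LEF letters 28 bases and the MYT1 letters 30 bases before the start. Of all 32851 RefSeq windows of this length, 27.6% held the TCF/LEF letters and 12.4% the MYT1 letters. Among the members, 7 had 12 windows, of which 5 held the TCF/LEF and 3 the MYT1 letters. These matches describe letters and not bound sites.

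In newly formed oligodendrocytes, Tcf7l2 stood at 1864, 2112 and 2137 CPM in the WT males, 2068, 2485 and 1791 CPM in the WT females, 3001, 2243 and 1915 CPM in the Het males and 2249, 2447 and 2983 CPM in the Het females. Every animal lay above every animal of every other class, the next highest single value being 575 CPM in a fibroblast-like sample. The share of all genes separated in this way was not counted. The mean of Tcf7l2 in newly formed oligodendrocytes was 2275 CPM ± 396 (SD, n = 12). The class exceeded the mean of the others by 5.53 on the log2 scale (SE 0.07, adjusted p = 1.59e-83, edgeR). Fibroblast-like cells came next at 378 CPM ± 99.8 (SD, n = 8), lower by a log2 difference of 2.87 (SE 0.14, adjusted p = 6.6e-36). Fibroblast-like cells did not differ from astrocytes (323 CPM ± 113, n = 8) beyond their spread (adjusted p = 0.671). Oligodendrocyte precursors followed at 133 CPM ± 44.6 (n = 12) and microglia at 125 CPM ± 53.1 (n = 7). Their log2 difference of 0.51 (SE 0.27) was not called (adjusted p = 0.107). Oligodendrocytes stood at 52.8 CPM ± 17.4 (n = 12). Excitatory and inhibitory neurons were the lowest, at 2.08 CPM ± 0.65 and 2.69 CPM ± 1.48 (n = 12 each), with no called difference between them (adjusted p = 0.57). A Tcf7l2 UMI was found in 377 of 412 newly formed oligodendrocytes (91.5%, exact 95% interval 88.4 to 94.0%, median 2397 UMIs per nucleus). The corresponding share in excitatory neurons, which were deeper at a median of 3444 UMIs, was 0.772%. Intervals of this kind cover counting error only.

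Along the lineage, Tcf7l2 rose by 3.96 (SE 0.12) from oligodendrocyte precursors to newly formed oligodendrocytes and fell by 5.32 (SE 0.11) from there to oligodendrocytes on the log2 scale (adjusted p = 3.77e-50 and 3.78e-65). The level in oligodendrocytes was below that in the precursors as well, with a log2 difference of -1.36 (SE 0.19, adjusted p = 7.89e-10). Tcf7l1 showed a rise of 2.64 (SE 0.20) and a fall of 3.03 (SE 0.16) over the same steps (adjusted p = 1.17e-21 and 2.44e-32). Its difference between oligodendrocytes and precursors was not called (log2 difference -0.40, SE 0.25, adjusted p = 0.161). From precursors to newly formed oligodendrocytes, Ror1 was lower instead, by a log2 difference of -2.31 (SE 0.39, adjusted p = 2.58e-07). The coreceptor gene Lrp5, which entered the fit only through microglia and fibroblast-like cells, had 0 to 9 UMIs per animal in precursors, 0 to 2 in newly formed oligodendrocytes and 0 to 1 in oligodendrocytes, so its differences along the lineage are a description (-1.89, SE 0.52, at this step). Of the 7 members, 2 were higher and 2 lower at this step, against 13.5% and 25.5% of all genes. From newly formed oligodendrocytes to oligodendrocytes, 0 were higher and 4 lower (14.6% and 16.7% of all genes). The 4 were Tcf7l2, Tcf7l1, Ctnnb1 (log2 difference -1.65, SE 0.23, adjusted p = 1.28e-09; admitted to the fit by its fibroblast-like samples, which this contrast does not use) and, as a description, Lrp5 (-3.05, SE 0.85). Lrp6 also declined at this step, by a log2 difference of -0.92 (SE 0.16, adjusted p = 6.72e-07), which is short of the size required for a call. Between the ends of the lineage, oligodendrocytes were lower than precursors in 5 members (Ror1, Lrp5, Lrp6, Ctnnb1 and Tcf7l2) and higher in 0, against 28.6% and 18.6% of all genes. The pair contrasts of Fzd3 passed no threshold in any of the 3 steps (adjusted p = 0.452, 0.526 and 0.0841).

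**Figure D2:**
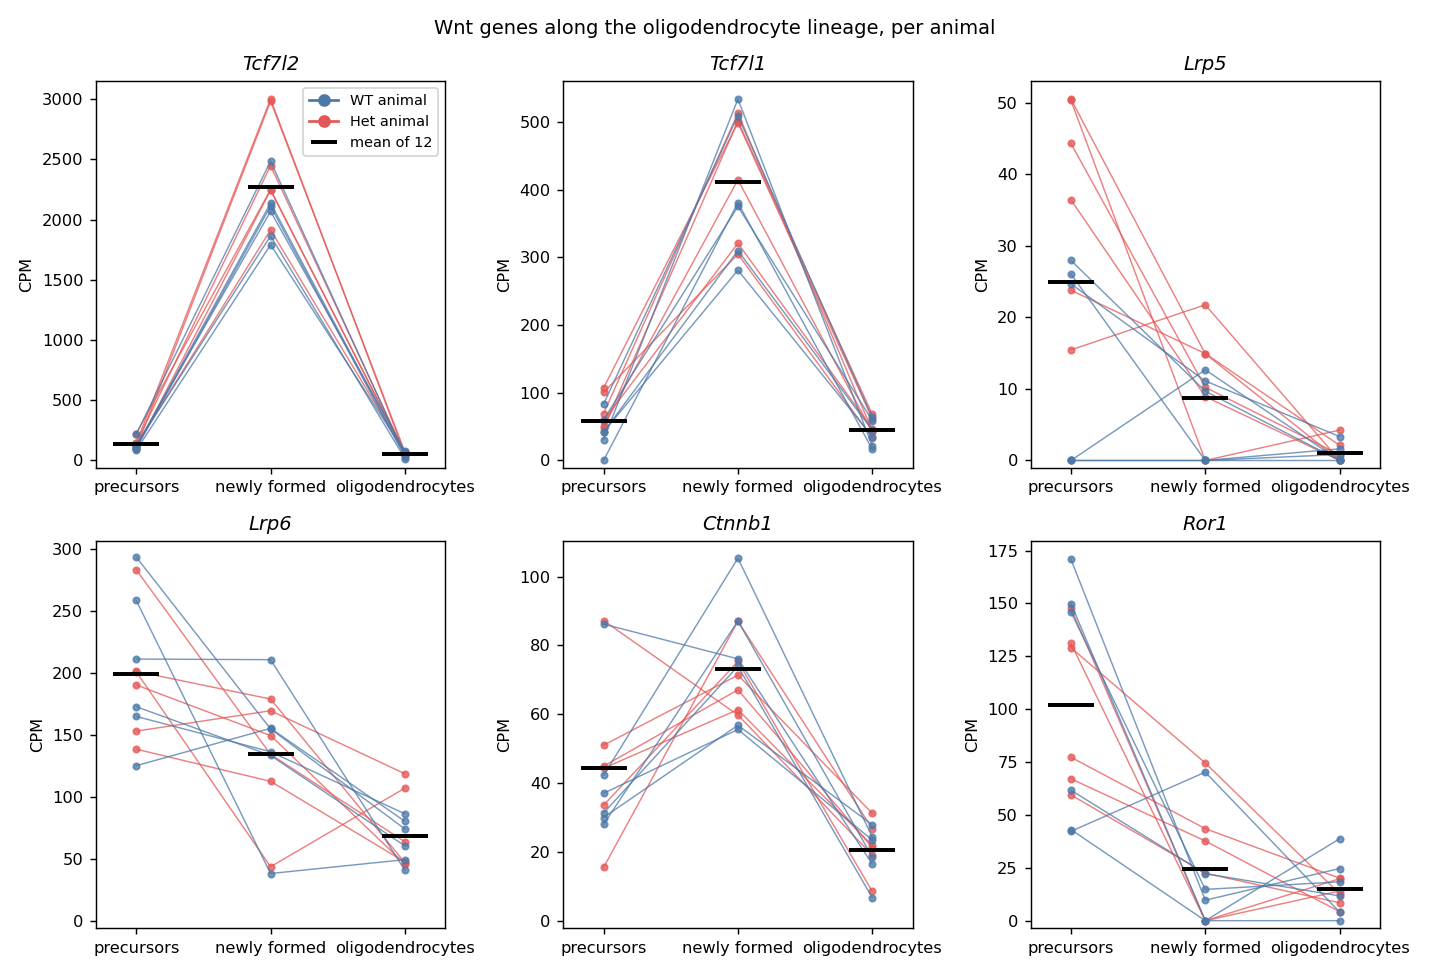
CPM per animal (vertical axes, linear and separate for each of 6 genes) in oligodendrocyte precursors, newly formed oligodendrocytes and oligodendrocytes (horizontal axes); lines join the classes of 1 animal, coloured by genotype, and black bars give the mean of 12 animals. Tcf7l2 peaks at 1791 to 3001 CPM and Tcf7l1 at 281 to 534 CPM in newly formed oligodendrocytes, with WT and Het animals intermixed.

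Tcf7l1 levels in newly formed oligodendrocytes ranged from 281 CPM in WT female 3 to 534 CPM in WT male 2, with a median of 397 CPM over the 12 animals. The class exceeded the mean of the others by 3.75 (SE 0.14, adjusted p = 3.47e-45). Fibroblast-like cells had 462 CPM ± 93.7 (SD, n = 8), and the fitted log2 difference, fibroblast-like cells minus newly formed oligodendrocytes, was -0.11 (SE 0.18, adjusted p = 0.63), against the order of the means. Astrocytes followed at 114 CPM ± 74.6 (n = 8) and exceeded the mean of the others by 1.56 (SE 0.29, adjusted p = 2.98e-06), a call lost with WT animals alone (log2 difference 0.64, adjusted p = 0.609). The difference between oligodendrocyte precursors (57.7 CPM ± 29.8) and oligodendrocytes (44.7 CPM ± 16.4, n = 12 each) was not called. Microglia had 11.98 CPM ± 16.7 (n = 7) and inhibitory neurons 4.10 CPM ± 1.85 (n = 12). Their log2 difference of 1.01 (SE 0.80) was not called either (adjusted p = 0.286), which does not show equal levels. Excitatory neurons had 2.58 CPM ± 1.01 (n = 12). A Tcf7l1 UMI was seen in 49.0% of newly formed oligodendrocytes and in 1.03% of excitatory neurons. Over the 17 classes with a level, the log levels of Tcf7l1 and Tcf7l2 had a Pearson r of 0.93, as a description, since classes of the same animals share libraries. The genes whose profile over the classes was most like that of Tcf7l2 were Ssr3 (r = 0.95) and Samd4b (r = 0.95). For Tcf7l1 they were Hnrnpr (r = 0.97) and Pak4 (r = 0.96), among 10944 genes compared.

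Lef1 (mm10 chr3:131110471-131224356, plus strand), the remaining factor of this family that was measured here, had a different distribution. Its counts were too low for the test with the usual filter. In astrocytes the level was 65.8 CPM ± 41.0 (SD, n = 8; lowest 0, median 81.2, highest 110). Fibroblast-like cells had 19.1 CPM ± 12.7 (n = 8), and the other broad classes had at most 5.32 CPM. Without the filter on low counts, differences of the 7 tested members moved by a median of 0.50 in excitatory neurons, 0.44 in inhibitory neurons, -0.40 in astrocytes, 0.25 in oligodendrocytes and -0.42 in fibroblast-like cells, so values of that fit are not on the scale of the others. In it, the log2 difference of Lef1 from the mean of the others was 4.82 (SE 0.43, adjusted p = 8.55e-24) in astrocytes, on 0 to 9 UMIs per animal. In fibroblast-like cells it was 2.47 (SE 0.66) on 0 to 2 UMIs per animal, which is a description. In that fit 4.52% and 4.54% of all 39535 genes were called higher in astrocytes and fibroblast-like cells. A Lef1 UMI was found in 24 of 187 astrocytes (12.8%, median 2287 UMIs) and in 0.554% of excitatory neurons. Endothelial nuclei, a cell type known for Wnt signalling at the blood-brain barrier, numbered only 25 over all animals and were not tested. Pooled, they held 32 Lef1 UMIs, or 385 CPM, with an exact Poisson 95% interval of 263 to 544 CPM. The same nuclei held 44 Ror1 UMIs and 10 Tcf7l2 UMIs. The profile of Lef1 over the classes was most like those of A2m (r = 0.94) and Prelp (r = 0.92).

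Ctnnb1 (mm10 chr9:120929216-120960507, plus strand) varied less between classes. Fibroblast-like cells had 161 CPM ± 75.9 (SD, n = 8; 43.4 to 269) with a log2 difference of 1.63 (SE 0.21) from the mean of the others, a description because the gene passed the filter only with these samples. Oligodendrocytes, at 20.5 CPM ± 7.33 (n = 12; 6.68 to 31.2), had a log2 difference of -1.37 (SE 0.17) from a mean that includes those samples. The other 6 broad classes lay between 38.3 CPM in inhibitory neurons and 73.1 CPM in newly formed oligodendrocytes, and neighbours in this order did not differ beyond their spread (adjusted p from 0.0607 to 0.611). Eya2 (r = 0.87) and Tspan8 (r = 0.86) were most like it over the classes. Axin2 (mm10 chr11:108920349-108950783, plus strand) was low in every class, with a mean of at most 17.7 CPM (Lamp5 nuclei, n = 12), and was not tested with the usual filter. Without that filter its difference was 1.16 (SE 0.21, adjusted p = 3.44e-07) in excitatory neurons, where 21.8% of all genes were called higher and the 7 tested members lay 0.50 above their values with the filter, and -2.54 (SE 0.56, adjusted p = 6.78e-05) in oligodendrocytes, where 4.98% were called lower. Its means were 8.67 CPM ± 2.28 in excitatory neurons, 11.3 CPM ± 11.7 in newly formed oligodendrocytes and 0.999 CPM ± 1.65 in oligodendrocytes (n = 12 each), so excitatory neurons did not hold the highest level.

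Lrp5 and Lrp6 code for the related coreceptors that bind Wnt beside Frizzled. Lrp5 (mm10 chr19:3584828-3686564, minus strand) was highest in microglia, at 99.7 CPM ± 25.8 (SD, n = 7; 55.3 to 130), and in fibroblast-like cells, at 93.4 CPM ± 42.7 (n = 8; 21.7 to 170). These levels rest on 4 to 8 UMIs per animal in microglia and 1 to 12 in fibroblast-like cells, and the gene entered the test only through these classes. Their log2 differences from the mean of the others, 3.34 (SE 0.35) and 3.37 (SE 0.36), are therefore a description. So is the log2 difference of microglia minus fibroblast-like cells (-0.02, SE 0.32). Oligodendrocyte precursors had 25.0 CPM ± 18.5 (n = 12) and astrocytes 23.1 CPM ± 27.1 (n = 8). Their log2 difference, precursors minus astrocytes, was 0.20 (SE 0.51), again as a description. Newly formed oligodendrocytes had 8.69 CPM ± 7.24 (n = 12). The level was 1.75 CPM ± 0.62 in excitatory neurons, 1.36 CPM ± 1.28 in inhibitory neurons and 1.08 CPM ± 1.47 in oligodendrocytes (n = 12 each), where the log2 differences, again as a description, were -2.50 (SE 0.34), -3.20 (SE 0.39) and -3.89 (SE 0.51). The difference in astrocytes, also a description, was 1.52 (SE 0.51) with all animals and 0.69 without Het female 1, and so it rests on that animal. Lrp6 (mm10 chr6:134446476-134566965, minus strand) was found in every class, from 68.3 CPM ± 25.5 in oligodendrocytes (n = 12) to 319 CPM ± 57.9 in fibroblast-like cells (n = 8). It was called lower in oligodendrocytes (log2 difference -1.20, SE 0.10, adjusted p = 2.47e-19), although it fell just short of the required size without WT male 2 (-0.99) or Het female 3 (-0.98). Its call in fibroblast-like cells stood at the limit (1.01, SE 0.15, adjusted p = 1.76e-08) and was lost on leaving out any of WT male 2, WT male 3, WT female 1, WT female 2, WT female 3, Het male 1, Het male 2 or Het female 3 (0.87 to 0.98). The genes most like Lrp5 over the classes were Parp14 and Irgm2 (r = 0.95 each), and those most like Lrp6 were Mmp14 (r = 0.93) and Smo (r = 0.92).

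Fzd3 (mm10 chr14:65192449-65262463, minus strand), the Frizzled receptor required for axon tract formation, was highest in astrocytes at 154 CPM ± 88.8 (SD, n = 8; 63.8 to 335). It exceeded the mean of the others there by 1.20 (SE 0.25, adjusted p = 2.46e-05), but not with a stricter marker rule (0.24, adjusted p = 0.636). Microglia had the lowest level, 38.2 CPM ± 29.8 (n = 7), with a log2 difference of -1.43 (SE 0.37, adjusted p = 0.000897). Excitatory neurons stood at 84.9 CPM ± 6.55 (n = 12), oligodendrocyte precursors at 82.0 CPM ± 54.7 (n = 12) and inhibitory neurons at 59.0 CPM ± 7.67 (n = 12). Within inhibitory neurons its means ran from 33.3 CPM in Pvalb to 87.1 CPM in striatal projection nuclei. It did not pass the filter there, and without the filter none of its differences reached the required size (striatal projection 0.95, SE 0.16, adjusted p = 7.12e-08; Pvalb -0.73, SE 0.18, adjusted p = 0.000929). Slc2a12 (r = 0.80) and Carnmt1 (r = 0.78) had the most similar profiles.

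Ror1 (mm10 chr4:100095791-100444765, plus strand) and Ror2 (mm10 chr13:53109312-53286124, minus strand) are shown with their promoters because their levels went opposite ways in L6 CT neurons. The windows are the 250 bases before the RefSeq start (GRCm38.p6), on the strand of each gene, with the TCF/LEF letters in capitals; neither held the MYT1 letters.
Ror1 (chr4:100095541-100095790): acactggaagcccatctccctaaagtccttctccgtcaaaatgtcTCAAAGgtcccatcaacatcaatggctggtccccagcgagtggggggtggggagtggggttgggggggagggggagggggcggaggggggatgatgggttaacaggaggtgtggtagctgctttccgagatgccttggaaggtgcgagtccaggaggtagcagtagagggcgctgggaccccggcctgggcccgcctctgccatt
Ror2 (chr13:53286125-53286374): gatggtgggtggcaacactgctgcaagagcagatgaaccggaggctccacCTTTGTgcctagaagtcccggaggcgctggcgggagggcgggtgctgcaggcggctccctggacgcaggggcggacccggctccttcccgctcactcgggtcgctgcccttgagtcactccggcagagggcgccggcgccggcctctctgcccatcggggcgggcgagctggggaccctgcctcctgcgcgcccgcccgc
The Ror1 window held TCAAAG, the reverse complement of CTTTGA, 205 bases before the start, and the Ror2 window held CTTTGT 200 bases before it. Among the broad classes, Ror1 was highest in fibroblast-like cells, at 745 CPM ± 209 (SD, n = 8; 496 to 1045), and exceeded the mean of the others by 4.14 (SE 0.20, adjusted p = 1.89e-33). Astrocytes had 123 CPM ± 117 (n = 8), a mean raised by 383 CPM in WT female 2 against a median of 84.4 CPM. Their difference from oligodendrocyte precursors at 102 CPM ± 47.6 (n = 12) was not called (adjusted p = 0.517). The precursors exceeded the mean of the others by 1.34 (SE 0.24, adjusted p = 1.58e-06). Ror1 was called lower in oligodendrocytes (-1.86, SE 0.27, adjusted p = 1.86e-09), newly formed oligodendrocytes (-1.30, SE 0.36, adjusted p = 0.00129), excitatory neurons (-1.19, SE 0.18, adjusted p = 4.96e-09; short of the required size without the filter, -0.69) and microglia (-1.25, SE 0.50, adjusted p = 0.0407). The call in newly formed oligodendrocytes missed the required size without Het female 2 (-0.999). The call in microglia was lost without WT male 2, WT male 3, WT female 1, Het male 1 or Het male 2 (adjusted p from 0.0526 to 0.114). Ror2 was too low for the filter among broad classes. Without the filter it was higher in inhibitory neurons (3.05, SE 0.22, adjusted p = 1.61e-43; 17.6% of all genes were called higher there) and in excitatory neurons (2.24, SE 0.23, adjusted p = 4.34e-21), both subject to the shift of that fit given above, and lower in oligodendrocytes (-2.64, SE 0.75, adjusted p = 0.00304). Its mean in excitatory neurons, 13.1 CPM, was below those in microglia (15.9 CPM) and fibroblast-like cells (15.2 CPM), and inhibitory neurons had 24.1 CPM.

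Within excitatory neurons, 5 members (Ctnnb1, Fzd3, Lrp6, Ror1 and Ror2) were tested over 5 subclasses, and 5 of 25 contrasts were called, 3 higher and 2 lower, all of them in Ror1 or Ror2. Over all genes, 2.74% of such contrasts were higher and 2.95% lower. In L6 CT neurons, Ror2 reached 46.5 CPM ± 11 (SD, n = 12; lowest 26.5, median 43.6, highest 66.7), while the means of the other excitatory subclasses were 1.91 to 5.00 CPM and no animal exceeded 16.3 CPM in them. Ror2 passed the filter only through L6 CT neurons, where 12 of 12 samples were past its limit against 0 of 12 in each other subclass. It therefore had to differ, and the lack of overlap between these groups restates that limit. Its log2 difference of 4.15 (SE 0.20) is likewise a description. Ror1 was the reverse in the same nuclei, at 6.65 CPM ± 2.03 (n = 12) and a log2 difference of -1.80 (SE 0.21, adjusted p = 3.28e-13). Of all 6415 genes tested, 3.06% were called higher and 7% lower in L6 CT neurons. Ror1 was higher in dentate granule nuclei, with 54.5 CPM ± 27.3 (n = 12; log2 difference 1.65, SE 0.30, adjusted p = 4.18e-06), and in L4/5 IT neurons, with 32.5 CPM ± 14.3 (n = 12; 1.16, SE 0.17, adjusted p = 8.66e-09). It was lower in L2/3 IT neurons, with 8.89 CPM ± 4.96 (n = 12; -1.17, SE 0.24, adjusted p = 2.64e-05). The share of all genes called higher was 3.38% in dentate granule nuclei and 2.04% in L4/5 IT neurons, and 1.78% were called lower in L2/3 IT neurons. With WT animals alone, the calls of Ror1 in L4/5 IT (0.61, adjusted p = 0.143) and L2/3 IT neurons (-0.91, adjusted p = 0.0784) did not pass, those in L6 CT (-1.99) and dentate granule nuclei (1.959) did, and Ror2 was not tested. With the stricter marker rule, the calls of Ror1 in L6 CT (adjusted p = 0.983) and L2/3 IT neurons (adjusted p = 0.208) were lost, and dentate granule nuclei gave no value. Ror2 in L6 CT stayed past the thresholds, which is a description for the reason given above. With nuclei above the upper limits kept, Ror1 fell short of the required size in L6 CT (-0.76), L4/5 IT (0.81) and dentate granule nuclei (0.92).

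Within inhibitory neurons, only Lrp6 passed the filter, which was applied over all 72 samples of the 6 subclasses, and none of its 6 contrasts reached a log2 difference of 1, against 6.86% of contrasts of all genes called higher and 6.46% lower. Without the filter, 9 contrasts of the members were called, 5 higher and 4 lower. Ror2 was higher in Sst nuclei, at 53.1 CPM ± 23.8 (SD, n = 12; 10.9 to 86.1), with a log2 difference of 2.39 (SE 0.24, adjusted p = 2.62e-21; 1.84% of all 28781 genes were called higher there). A Ror2 UMI was seen in 16.5% of Sst nuclei (median 3939 UMIs). The share was 5.47% in Cnr1/Cck, 4.23% in Lamp5, 2.69% in Pvalb, 2.5% in Vip and 1.11% in striatal projection nuclei. It was 0.366% in oligodendrocytes (median 2477 UMIs). Striatal projection nuclei were higher in Ror1 (77.5 CPM ± 42.8, n = 12; 1.94, SE 0.20, adjusted p = 2.43e-21) and Tcf7l1 (15.7 CPM ± 9.68, n = 12; 2.52, SE 0.41, adjusted p = 2.08e-08) and lower in Ror2 (5.05 CPM ± 6.17, n = 12; -1.82, SE 0.45, adjusted p = 0.00059), where 5.36% of all genes were called higher and 3.04% lower. Ror1 was also higher in Cnr1/Cck nuclei (1.10, SE 0.28, adjusted p = 0.00512; 0.858% of genes), where the means were 23.3 CPM in WT and 85.4 CPM in Het, and lower in Pvalb (-1.22; 2.43%), Sst (-1.02; 0.799%) and Vip nuclei (-1.77; 0.82%), with adjusted p from 3.47e-05 to 0.0145. Axin2 was higher in Lamp5 nuclei (1.33, SE 0.36, adjusted p = 0.00474; 2.21%). Over the 17 classes, Jag1 (r = 0.89) and Nsa2 (r = 0.87) were most like Ror1, and Zfp420 (r = 0.84) and Nomo1 (r = 0.75) most like Ror2.

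**Figure D3:**
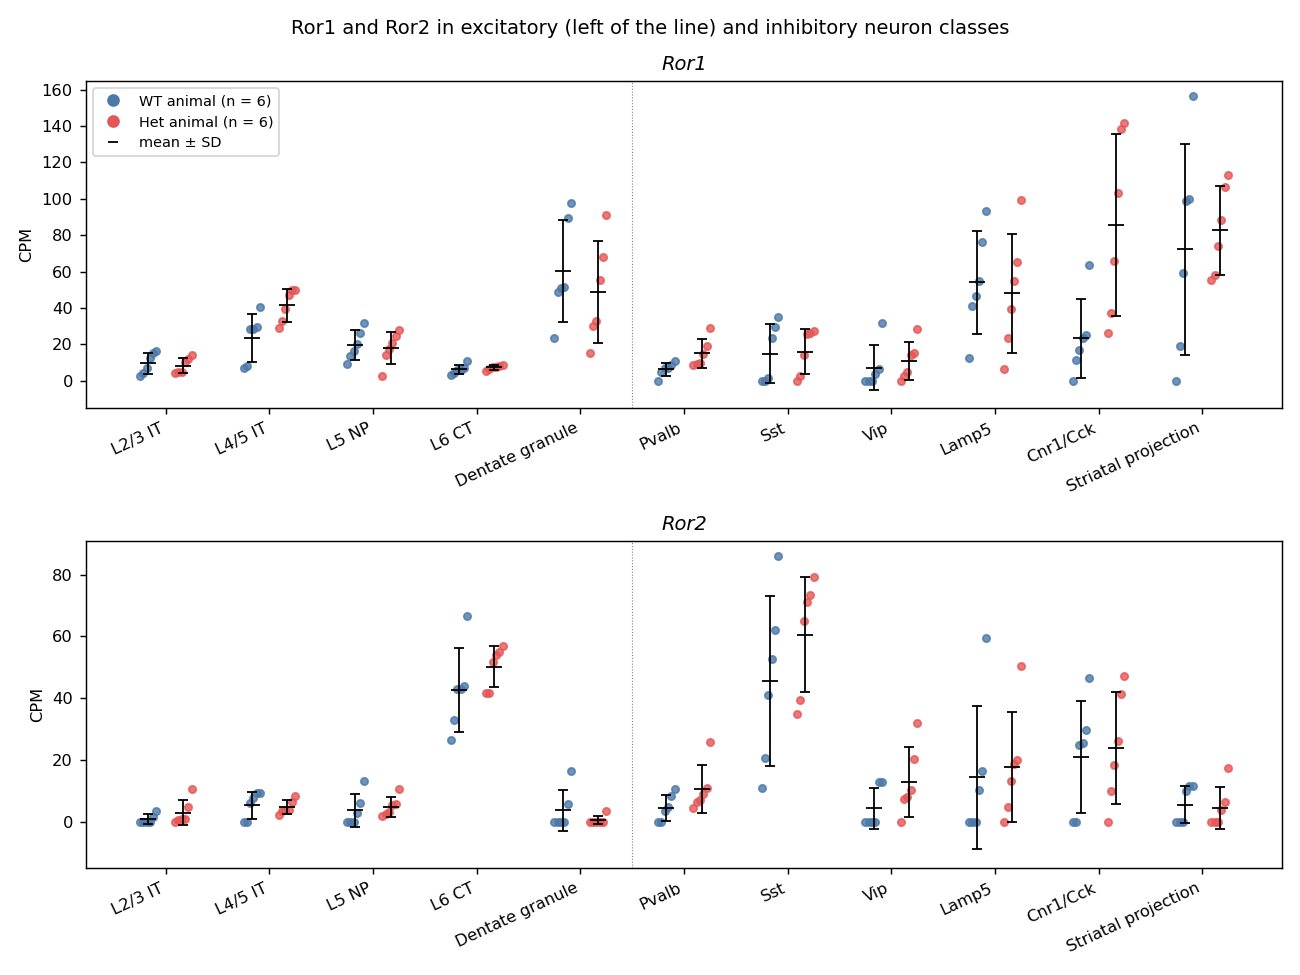
CPM of Ror1 and Ror2 (vertical axis) in 11 neuron classes (horizontal axis); points are animals, coloured by genotype and ordered by level, and bars give the mean and SD of the 6 animals of a genotype. Over the 12 animals, Ror2 has a mean of 46.5 CPM in L6 CT and 53.1 CPM in Sst nuclei, while Ror1 has a mean of 6.65 CPM in L6 CT and 77.5 CPM in striatal projection nuclei.

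Levels in MYT1L Het were then compared with WT within each class. A call required an adjusted p under 0.05 and a log2 fold change over 0.2 in size. Of the 190 combinations of a member and a class, 47 had enough counts and came from 8 members and 17 of the 19 classes fitted. None of the 47 was called by edgeR, against 0.0922% of all 71581 combinations of a gene and a class (66 calls), and DESeq2 called 0 members as well. At an unadjusted p under 0.05 there were 8 (17.02%, against 6.43% of all combinations), 7 higher and 1 lower in Het. Het was higher in 29 of 47 (61.7%, against 48.9% of all combinations), with a median log2 fold change of 0.02 against -0.0047. These shares are a description, because excitatory and inhibitory neurons include the nuclei of their subclasses. Fzd3, for example, is among the 8 in excitatory, L5 NP and L6 CT neurons. The smallest adjusted p was 0.136 by edgeR and 0.224 by DESeq2. In the pool of all nuclei, none of the 10 members was called (adjusted p from 0.895 to 0.999).

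Ror1 in inhibitory neurons was the only one of the 47 in which the genotypes did not overlap, against 0.682% of all combinations and 0.28% of the genes in inhibitory neurons. The level was 12.9, 25.5 and 22.7 CPM in the WT males, 24.6, 18.0 and 15.0 CPM in the WT females, 31.0, 36.6 and 27.9 CPM in the Het males and 28.1, 35.4 and 27.2 CPM in the Het females. All 6 Het animals thus lay above all 6 WT animals, with means of 31.1 CPM ± 4.09 and 19.8 CPM ± 5.25 (SD, n = 6 each). The ratio was 1.53 (95% interval 1.24 to 1.89; log2 fold change 0.61, SE 0.16), with an unadjusted p = 0.000633 and an adjusted p = 0.312 by edgeR, where 0% of all 10356 genes were called. When no gene was filtered for low counts, the same comparison had a log2 fold change of 0.62 and an adjusted p = 0.0323, and passed together with 55 of 32972 genes (0.167%). Striatal projection nuclei, the inhibitory class with the highest Ror1 over all 12 animals (in Het alone, 82.7 CPM against 85.4 CPM in Cnr1/Cck nuclei), made up 6.96% ± 3.06 of inhibitory nuclei in WT and 11.9% ± 3.73 in Het (SD, n = 6 each). With these nuclei left out, the log2 fold change of Ror1 was 0.58 (SE 0.16) and the adjusted p = 0.99998. Within striatal projection nuclei, the log2 fold change was -0.01 (SE 0.36). Among the other subclasses, none could be tested, and Ror1 had means of 23.3 CPM in WT and 85.4 CPM in Het in Cnr1/Cck nuclei, 6.23 and 15.0 CPM in Pvalb, 7.03 and 10.7 CPM in Vip, 14.9 and 15.9 CPM in Sst, and 54.1 and 48.1 CPM in Lamp5 nuclei (n = 6 each). In excitatory neurons the log2 fold change of Ror1 was -0.04 (SE 0.12), whereas in L4/5 IT neurons it was 0.67 (SE 0.25, adjusted p = 0.46), on 1.5 to 34.9 Ror1 UMIs per animal.

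Fzd3 had the smallest adjusted p, in L6 CT neurons. The level was 59.7, 59.1 and 68.1 CPM in the WT males, 68.9, 79.6 and 93.9 CPM in the WT females, 96.1, 111 and 111 CPM in the Het males and 91.4, 87.6 and 88.1 CPM in the Het females. Only WT female 3 overlapped the Het range. The ranges of WT and Het thus overlapped over all animals. The effect of genotype was not called as different between the sexes (adjusted p = 0.828, edgeR). The ratio was 1.31 (95% interval 1.12 to 1.54; log2 fold change 0.39, SE 0.12, adjusted p = 0.136), in a class where 0.479% of genes were called. The log2 fold change of Fzd3 was 0.36 in L5 NP neurons (SE 0.15, adjusted p = 0.869), 0.14 in all excitatory neurons (SE 0.06, adjusted p = 0.6), 0.08 in excitatory neurons without L6 CT nuclei (SE 0.07, adjusted p = 0.916) and -0.53 in oligodendrocytes (SE 0.24, adjusted p = 0.949). Ror2 in excitatory neurons, the next member in order of p, had 11.5 CPM ± 3.71 in WT and 14.8 CPM ± 1.29 in Het (SD, n = 6 each; log2 fold change 0.41, SE 0.15, adjusted p = 0.379). Within L6 CT neurons, its log2 fold change was 0.25 (SE 0.16, adjusted p = 0.663). Without L6 CT nuclei it was 0.41 (SE 0.22, adjusted p = 0.817), where the other excitatory subclasses tested had means of only 1.91 to 5.00 CPM. L6 CT nuclei were 17.3% ± 2.81 of excitatory nuclei in WT and 19.2% ± 1.78 in Het. Ctnnb1 in L6 CT neurons had a log2 fold change of 0.29 (SE 0.14, adjusted p = 0.491).

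In newly formed oligodendrocytes, where Tcf7l2 was highest, the WT mean was 2076 CPM ± 244 and the Het mean 2473 CPM ± 437 (SD, n = 6 each), with overlapping ranges. The ratio was 1.16 (95% interval 0.964 to 1.41, adjusted p = 0.998, edgeR). Tcf7l1 there had a ratio of 1.04 (95% interval 0.804 to 1.36, adjusted p = 0.998). These intervals include no change and also a rise of the size just named, so neither equality nor a difference is shown. The class itself made up 1.18% ± 0.62 of nuclei in WT and 1.38% ± 0.38 in Het (SD, n = 6 each). In fibroblast-like cells, the 3 WT animals were all females and the 5 Het animals were 2 males and 3 females, so genotype and sex cannot be fully told apart. There the ratio of Tcf7l2 was 0.731 (95% interval 0.499 to 1.07) and that of Ror1 1.23 (95% interval 0.817 to 1.84). In astrocytes, also 3 WT and 5 Het, Tcf7l2 had a ratio of 1.24 (95% interval 0.762 to 2.02).

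**Figure D4:**
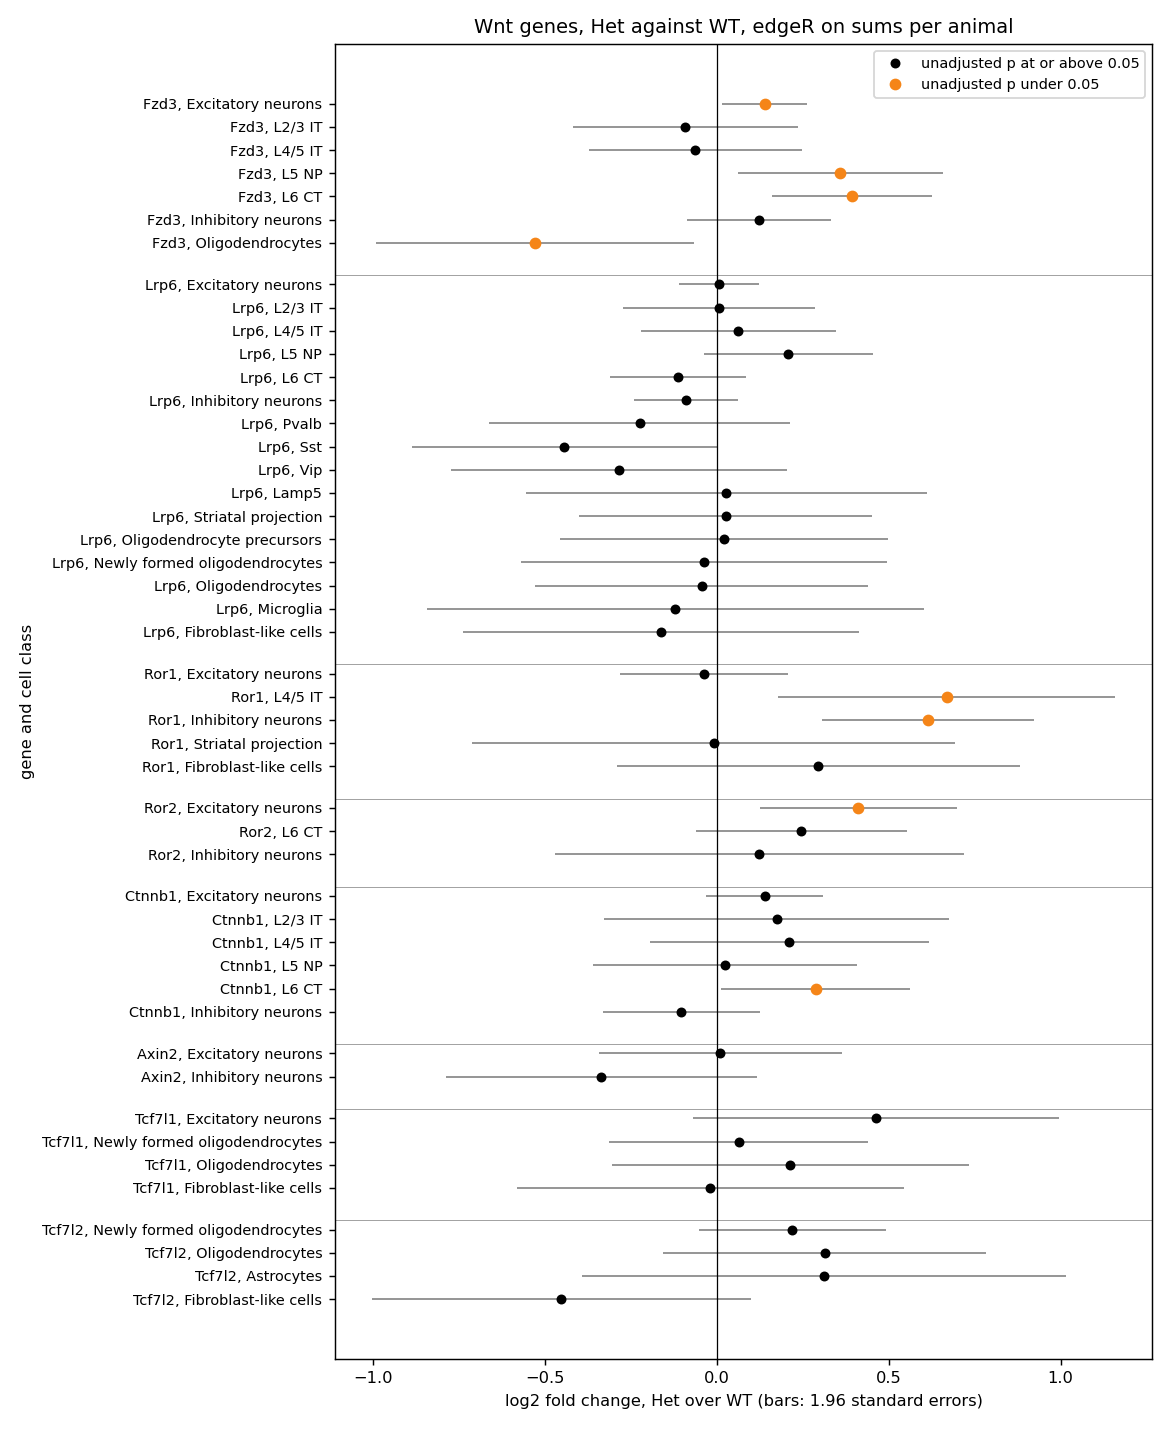
Log2 fold change of Het over WT (horizontal axis) with its 95% interval for the 47 combinations of member and class with enough counts (vertical axis). Intervals of 8 combinations lie on one side of 0 at the unadjusted level, among them Ror1 in inhibitory neurons (0.61) and Fzd3 in L6 CT neurons (0.39), and none passed the adjusted threshold.

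The difference between males and females in the effect of genotype was tested for 43 combinations in 16 of 18 classes and could not be estimated in fibroblast-like cells. None was called by edgeR (0.0185% of all 70374 combinations were), 4 had an unadjusted p under 0.05, and the smallest adjusted p was 0.772. Of the 4, 3 were Fzd3: the log2 fold change in females minus that in males was -0.64 in L6 CT neurons (SE 0.22, unadjusted p = 0.00672, adjusted p = 0.828), 0.74 in L2/3 IT neurons (SE 0.34, adjusted p = 0.798) and 0.65 in L5 NP neurons (SE 0.30, adjusted p = 0.772). The remaining one was Lrp6 in Sst nuclei (0.98, SE 0.44, adjusted p = 0.9997). The combination in astrocytes rests on a single WT male and that in microglia on a single Het female.

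The rest of the pathway was described from a list of 104 other Wnt genes, of which 103 were found. Between broad classes 22 of them could be tested, and 15 (68.2%) were higher and 14 (63.6%) lower in at least one class, against 67.7% and 59.9% of all 4313 genes. Rspo3, a secreted enhancer of Wnt signalling, stood at 601 CPM ± 281 in fibroblast-like cells (SD, n = 8), and no other class exceeded 34.6 CPM. Wls, which carries Wnt ligands to the cell surface, was also highest there at 550 CPM ± 111 (n = 8). Among receptors and their partners, the Rspo receptor Lgr4 (179 CPM ± 80.9) and Lrp4 (118 CPM ± 56.0) were higher in astrocytes (n = 8). The highest mean of any other class was 164 CPM for Lgr4 and 87.4 CPM for Lrp4. The ubiquitin ligases that remove Frizzled were split, with Znrf3 highest in astrocytes (420 CPM ± 97.8, n = 8) and Rnf43 in oligodendrocyte precursors (226 CPM ± 80.1, n = 12). Dkk3, a member of the Dickkopf family, had its highest level in excitatory neurons (89.9 CPM ± 13.9, n = 12), and the corepressor Tle1 was higher in oligodendrocytes (201 CPM ± 48.8, n = 12). Other classes reached means of 80.3 CPM for Dkk3 and 167 CPM for Tle1. Daam2, a formin that binds Dishevelled, was higher in astrocytes (486 CPM ± 177, n = 8), whereas its relative Daam1 was higher in oligodendrocytes (1368 CPM ± 132, n = 12). The adenomatous polyposis coli gene Apc, a scaffold of the destruction complex, was higher in inhibitory neurons (714 CPM ± 206, n = 12), and the planar polarity genes Prickle1 in excitatory neurons (486 CPM ± 56.5, n = 12; another class had a higher mean, 565 CPM) and Prickle2 in oligodendrocytes (1417 CPM ± 243, n = 12). Other classes reached means of 597 CPM for Apc and 958 CPM for Prickle2. These differences from the mean of the other classes had adjusted p of at most 3.19e-11 (edgeR), except that Rspo3, Rnf43 and Dkk3 are given as a description because they passed the filter only with samples of the class named. In astrocytes, the corepressor Tle4 (log2 difference 1.01, adjusted p = 1.03e-06) and the coreceptor component Reck (1.004, adjusted p = 0.000925) passed close to the size required for a call, although Reck had a mean of 109 CPM there and 126 CPM in another class.

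Between genotypes, 58 of the other Wnt genes were tested in 363 combinations and none was called by edgeR, against 0.0922% of all combinations, while 19 (5.23%, against 6.43% of all) had an unadjusted p under 0.05. By role, 1 was among 18 combinations of ligands, 1 among 13 of ligand release, 4 among 30 combinations of receptors and coreceptors, 5 among 29 of extracellular and membrane inhibitors, 7 among 61 of nuclear factors, 1 among 145 of the cytoplasmic and destruction complex and 0 among 67 of planar polarity genes. These counts can repeat a gene over shared nuclei. Among the inhibitors, Dkk3 was counted in excitatory neurons and again in their L2/3 IT, L4/5 IT and L6 CT subclasses. The smallest adjusted p was 0.0745, for Dkk3 in excitatory neurons (log2 fold change 0.33, SE 0.08). That comparison passed with DESeq2 (adjusted p = 0.0194), without WT female 2 (0.38, adjusted p = 0.0391) and without Het male 2 (0.38, adjusted p = 0.0376).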

How the data were processed

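Nuclei were isolated from flash-frozen P21 cortices and libraries were made with the Scale Biosciences single-cell kit. The authors aligned reads to mm10, counted them with ScaleRna v1.4 and called nuclei with CellFinder. The deposited values are expected counts, UMIs that may be divided among genes, of which 92.2 to 92.6% were whole. No normalization was applied to them. They were rounded to whole numbers for tests, and the injected reporter was left out. Gene positions came from the mm10 annotation, by identifier.

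As in the study's methods, barcodes were kept with 800 to 6000 UMIs, 300 to 3000 genes, a mitochondrial share of at most 1% and log genes over log UMIs of at least 0.9. The top 5% of Scrublet scores per animal (scanpy 1.11.5) were dropped as doublets, leaving 33112 of 78743 barcodes. Without the upper limits and the log ratio, 74782 nuclei remained. The paper reports more P21 nuclei than there are barcodes here, so its set of nuclei was not reproduced. A glial nucleus needed at least 3 UMIs from 2 markers of a list and 4 times the average of that list. A neuron needed at least 2 UMIs of the excitatory or inhibitory list and 3 times those of the other list. Sums per animal and class of at least 10 nuclei were fitted with edgeR 4.0.16 in R 4.3.3 (TMM, filterByExpr, robust quasi-likelihood, Benjamini-Hochberg adjustment over all genes tested in a class), with at least 3 animals per genotype. DESeq2 1.42.0 was an alternative. The pair contrasts along the lineage came from the same class fit. Likeness is Pearson's r of log2(CPM + 1) over class means. The scripts were tested on simulated data. The members, marker lists and lists of other Wnt genes were chosen with earlier results of these data known. All members are named, and of the other Wnt genes at most 4 a role with the largest called differences between classes. For each member, the 2 genes most like it were taken among those of at least 20 CPM in some class. The animals are separate mice from 4 litters, and the litter of each mouse was not used here. Columns of the authors' comparisons were not used.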

Additional observations from a re-analysis of the deposited data

Results flagged for a closer look

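In 88 groups of animals (a member in a class, WT or Het), the highest or lowest animal was set against its group by Dixon's criterion, which chance meets in about 1 of 20 groups. It was met in 5 (5.68%), so the number is near that expectation. Lrp6 in excitatory neurons stood at 118.6 CPM in Het female 2, while the other 5 Het animals had 105 to 110 CPM. Lrp6 in L4/5 IT neurons stood at 182.0 CPM in WT female 1 against 96.8 to 106 CPM in the other WT animals. In L5 NP neurons, Lrp6 was 112.3 CPM in WT male 3 and 86.3 to 95.7 CPM in the others. Fzd3 in L2/3 IT neurons was 53.3 CPM in Het male 1, below the 84.5 to 101 CPM of the other Het animals. Ctnnb1 in L4/5 IT neurons was 27.8 CPM in Het male 2, below 41.3 to 49.3 CPM in the others. None of these is a comparison called between genotypes.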

How the results depend on the processing

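The count of members called between Het and WT was 0 and became 1 without the low-count filter (Ror1 in inhibitory neurons), and it was 0 on leaving out any 1 animal. Alternatives chosen after seeing the data, inhibitory neurons without striatal projection nuclei and excitatory neurons without L6 CT nuclei, also gave 0. For the other Wnt genes, 0 became 1 with DESeq2, 1 without the filter, 3 with nuclei above the upper limits kept (Dkk3 in excitatory and L6 CT neurons, Bcl9l in L6 CT neurons), and 0 to 1 on leaving out each animal. Over all genes, 66 calls became 182 with DESeq2, 358 without the filter, 204 without the upper limits, 22 with a stricter marker rule, 35 with males only, 23 with females only and 30 to 126 on leaving out each animal. Among broad classes, 31 member calls became 31 without TMM factors, 34 without the filter, 21 without the upper limits, 24 without doublet removal, 27 with the stricter marker rule, 25 with WT animals only, 32 with limma voom and 23 to 31 on leaving out each animal. Among excitatory classes, 5 became 3 without the upper limits, 3 with the stricter marker rule, 2 with WT animals only and 5 to 6 on leaving out each animal. Among inhibitory classes, 0 became 9 without the filter, 7 without the upper limits and 0 to 6 on leaving out each animal. With all animals, Ror1 was past the limit of the filter in 6 striatal projection, 3 Cnr1/Cck and 2 Lamp5 samples, where 12 samples were needed. The cause of these changes was not tested. Of 645 alternative values for the differences between classes named above, 593 kept their call, 52 lost it and 0 changed direction. Of those lost, 21 were on leaving out 1 animal (1 to 4 calls for each of 10 animals, the most without WT male 2), and the others numbered 8 with WT animals only, 7 without the upper limits, 6 with the stricter marker rule, 2 without TMM factors, 2 without doublet removal and 6 without the filter (Ror1 in excitatory neurons -0.69, Fzd3 in astrocytes 0.81, Lrp5 in astrocytes 1.12 with adjusted p = 0.138, Tcf7l2 in oligodendrocyte precursors 0.87, Lrp6 in oligodendrocytes -0.95 and in fibroblast-like cells 0.59). With a replicate block, 0 members, 0 other Wnt genes and 60 of all genes were called. Animals with the same replicate number did not deviate together (r from -0.60 to 0.07 over 6 pairs), and the number was not used as a pairing. So few pairs cannot exclude one. Depth limits Lef1, Axin2 and Ror2 in glia, and Cnr1/Cck, endothelial and astrocyte values, which rest on few nuclei.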
